A study of Mus musculus with 18 samples.

Results

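The comparison set mouse bone marrow-derived macrophages given interleukin-4 (IL-4) for 6 h against the same kind of cells given bacterial lipopolysaccharide (LPS) for 6 h. Its libraries were picked by their labels, not by measured values, and are 4 of the 18 libraries of the series, 2 with IL-4 and 2 with LPS. The macrophages came from C57BL6/J wild type mice and were grown from bone marrow for 7 days in 20% L929-conditioned medium, the source of their growth factor, and 80% DMEM with serum. A pair of control libraries of the same kind of macrophages, called untreated here because the labels give them no stimulus, entered the fit to share the estimate of the spread and to place the level that both stimuli started from. The labels name no allele, knockout or inhibitor for these 6 libraries, and no dose of IL-4 or LPS is given in the sources used. The labels do not say that the 2 libraries of a group came from separate mice or cultures, so p-values measure only the spread between these libraries.

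IL-4 binds a receptor whose α chain, Il4ra, pairs with the common γ chain or with Il13ra1, and the kinases bound to it phosphorylate the transcription factor STAT6. Macrophages treated this way take up an alternatively activated state known for arginase, mannose receptor and resistin-like proteins. LPS is sensed by CD14, MD-2 (Ly96) and TLR4, and drives NF-κB through the adaptor MyD88 and interferon-β through the adaptor TRIF (Ticam1), which together give the classically activated state with cytokines, nitric oxide and antiviral genes.

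Libraries held 34.2 to 39.8 M counts and detected 14310 to 14988 genes. Of 23052 genes listed, 16715 had a count and 12506 had enough counts to be tested. Values are CPM, counts scaled to a common library size, and adjusted by TMM factors, which assume that most genes are equal between libraries. The factors were 0.791 and 0.822 with LPS, 1.13 and 1.12 with IL-4, and 1.12 and 1.09 untreated. On the first principal component (73.3% of variance) TMM-scaled levels set the LPS libraries (103 and 94.6) apart from the IL-4 (-60.1 and -60.6) and untreated ones (-38.5 and -38.4), and the second, with 18.5%, set IL-4 (-39.7 and -39.9) apart from untreated (45 and 47.2). Defining macrophage genes were abundant in every library, with Csf1r, the receptor of the growth factor in the medium, at 5474 and 6345 CPM with IL-4 and 5329 and 4783 CPM with LPS. The 10 macrophage markers took 3.13 and 3.37% of counts with IL-4, 2.88 and 2.87% with LPS and 4.32 and 3.79% untreated.

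IL-4 and LPS left the cells with different levels of many genes tested, and how many depended on the fit. Of 12506 genes tested, 6645 (53.1%) differed at a Benjamini-Hochberg adjusted p under 0.05 in edgeR's quasi-likelihood test, the rule used for every gene called below. IL-4 had the higher level in 3717 (29.7% of genes tested) and LPS in 2928 (23.4%). Differences are given as log2 of IL-4 over LPS, so positive values are higher with IL-4. The value after ± is a standard error taken back from the F of that test, the difference divided by the square root of F. It is approximate and may be too small where a group held few counts, such as Fpr1 with 3 and 5 counts with IL-4. A difference of over 1 log2 unit was called in 2093 genes higher with IL-4 (16.7%) and in 1570 higher with LPS (12.6%), and one of over 4 log2 units in 193 and 220 genes. Another 2982 genes were called with a difference of 1 log2 unit or less. The 2 IL-4 and the 2 LPS libraries did not overlap in 10046 genes (80.3%), a share that includes genes with small differences, since 2 libraries against 2 separate often. In bulk samples fewer cells of a type and less RNA per cell cannot be told apart.

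The split between the directions depended on the scaling. With 53.1% of genes called, the assumption of TMM that most genes are equal may not hold. TMM gave 55.9% of calls higher with IL-4, RLE size factors 51.1%, upper quartile factors 66.8%, library totals alone 79.6% and DESeq2 49.2%. Against TMM, library totals moved the median difference of all genes from 0.10 by 0.48 log2 units and upper quartile factors by 0.18. With library totals 379 of the genes called with TMM had the opposite sign, and 0 of these were called with that sign. Small differences near 0 therefore carry no firm direction, while those over 1 log2 unit exceed every shift of scale tried.

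**Figure D1:**
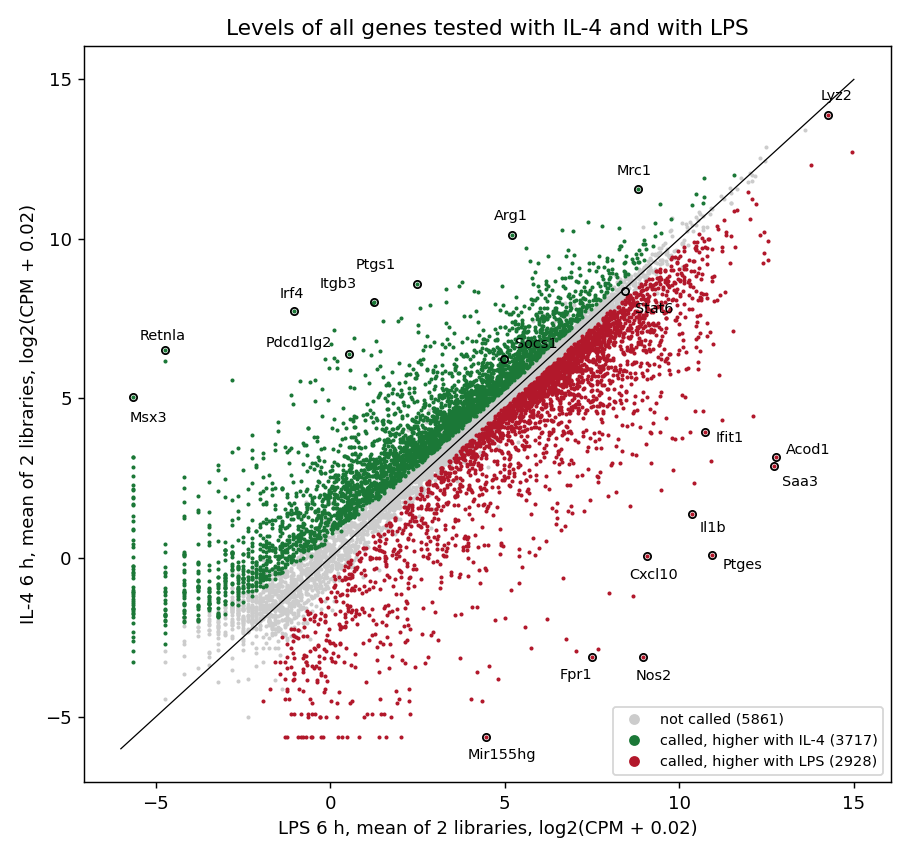
Mean level of each of the 12506 genes tested in the 2 LPS libraries (x axis) and the 2 IL-4 libraries (y axis), both as log2 of CPM plus an offset of 0.02, with the line of equal levels. Green points are the 3717 genes called higher with IL-4, red points the 2928 called higher with LPS, grey points were not called, and Retnla, Irf4 and Arg1 stand far above the line while Nos2, Ptges and Fpr1 stand far below it.

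The untreated libraries gave a level to set each state against. Both comparisons with untreated cells share those 2 libraries, so their values are set side by side with no test. The genes far apart were also chosen by the difference between the same IL-4 and LPS libraries. That choice by itself raises their shares of calls in the matching direction over the shares of all genes. Such an excess is therefore no separate evidence, and the shares only describe the chosen genes. IL-4 against untreated called 2513 genes (20.1%) and LPS against untreated 6536 (52.3%). Of the 2093 genes called over 1 log2 unit higher with IL-4 than with LPS, 647 (30.9%) were called above untreated with IL-4 and 1705 (81.5%) were called below untreated with LPS. Over all genes tested these shares were 9.64% and 29.4%. Of the 1570 genes called over 1 log2 unit higher with LPS, 1390 (88.5%) were called above untreated with LPS and 473 (30.1%) below untreated with IL-4, against 22.8% and 10.5% of all genes tested. The genes over 4 log2 units apart had more IL-4 rises: 143 of 193 (74.1%) were called above untreated with IL-4 and 118 (61.1%) below it with LPS. On the LPS side 218 of 220 (99.1%) were called above untreated with LPS and 83 (37.7%) below it with IL-4.

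Among the 15 largest differences higher with IL-4 were genes that LPS left at or near no counts. The homeobox gene Msx3 had 34.98 and 31.03 CPM with IL-4 and 0 counts in both LPS and both untreated libraries, which put IL-4 at least 628-fold higher with a floor of 3 counts over the LPS group. Retnla, a secreted resistin-like protein and a marker of alternative activation, had 3206 and 4344 counts with IL-4 and 0 and 1 with LPS, a count ratio of 5210 (95% interval 935 to 206000) that covers counting error only. In the same way Scn3a, a sodium channel subunit, had 3574 and 2322 counts with IL-4 and 0 and 1 with LPS, a ratio of 4070 (95% interval 730 to 161000). Retnla and Scn3a also had 0 counts in both untreated libraries. The 15 genes were chosen among those without overlap, so a gap between the IL-4 and LPS libraries is no further evidence for them. Rtn4rl1, a Nogo receptor-like protein, reached that gap from an untreated level of 3.38 and 3.21 CPM: it had 8.28 and 9.35 CPM with IL-4 and 0 counts in both LPS libraries, at least 169-fold higher.

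Irf4, a transcription factor needed for alternative activation genes, moved in opposite directions from its untreated 8.47 and 10.2 CPM. It stood at 203 and 224 CPM with IL-4 and 0.522 and 0.419 CPM with LPS (8.81 ± 0.21, adjusted p = 1.55e-05). Its change from untreated was 4.51 log2 units with IL-4 and -4.30 with LPS, both called. B3gnt7, which extends sugar chains with N-acetylglucosamine, had 47.8 and 48 CPM with IL-4 and 0.139 and 0.105 with LPS (8.58 ± 0.21, adjusted p = 1.55e-05). The sialyltransferase St6gal1 had 253 and 250.3 CPM with IL-4, 2.5 and 2.1 with LPS and 79.4 and 71.9 untreated, so most of its 6.77 ± 0.15 log2 units lay on the LPS side. Gprc5c, an orphan receptor, showed the same order, with 136 and 145 CPM with IL-4, 1.11 and 0.978 with LPS and 41.8 and 36.6 untreated (7.07 ± 0.16).

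Surface adhesion genes were part of this group. Itgb3, the integrin β3 chain, had 252 and 265 CPM with IL-4, 2.85 and 1.89 with LPS and 5.9 and 5.51 untreated (6.77 ± 0.23, adjusted p = 2e-05). Pecam1, the adhesion molecule CD31, had 101 and 109 CPM with IL-4, 1.01 and 0.978 with LPS and 5.06 and 4.67 untreated (6.72 ± 0.14). In both genes the IL-4 libraries were far above all others and the LPS libraries were the lowest. Lpin1, a phosphatidate phosphatase of lipid synthesis, Tbc1d4, which controls vesicle traffic of glucose carriers, and Tmem144 differed by 6.39 ± 0.14, 6.24 ± 0.17 and 6.29 ± 0.16 log2 units. Rasgrp3, an activator of Ras and Rap, and Tlr5, the receptor of flagellin, were not called against untreated with IL-4. Rasgrp3 had 48.5 and 44.95 CPM with IL-4, 0.174 and 0.873 with LPS and 75.6 and 136 untreated, and Tlr5 had 7.37 and 7.42 with IL-4, 0.0348 and 0.14 with LPS and 5.81 and 4.57 untreated. Of the 15 genes 13 were called above untreated with IL-4 and 12 below untreated with LPS, beside 9.64% and 29.4% of all genes tested.

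The 15 largest differences higher with LPS were all called above untreated with LPS, beside 22.8% of all genes tested. Of them 8 were also called below untreated with IL-4, beside 10.5% of all genes tested. The largest, Mir155hg, the host transcript of an inflammatory microRNA, had 23.04 and 20.7 CPM with LPS and 0 counts in both IL-4 libraries, at least 606-fold higher with LPS, and 0.12 and 0.234 CPM untreated. Nos2, the inducible nitric oxide synthase, had 668 and 322 CPM with LPS, 0.0779 and 0.112 with IL-4 and 0.288 and 0.141 untreated (-12.28 ± 0.63, adjusted p = 5.54e-05). Ptges, the terminal synthase of prostaglandin E, had 2282 and 1655 CPM with LPS, 1.17 and 0.919 with IL-4 and 4.97 and 4.15 untreated (-10.88 ± 0.30, adjusted p = 1.7e-05). Its LPS libraries were the highest and its IL-4 libraries the lowest of the 6.

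The formyl peptide receptors, which sense bacterial peptides, parted in the same way. Fpr1 had 180.4 and 184 CPM with LPS, 0.0779 and 0.112 with IL-4 and 1.66 and 2.21 untreated (-10.84 ± 0.25). Fpr2 had 254 and 257 CPM with LPS, 0.389 and 0.493 with IL-4 and 1.56 and 2.25 untreated (-9.16 ± 0.26). Both fell below untreated with IL-4 (-4.28 and -2.10 log2 units). Cd38, an enzyme that breaks down NAD, differed by -10.19 ± 0.19 log2 units, with 128 and 133 CPM with LPS and 0.13 and 0.0897 with IL-4. Lipg, an endothelial-type lipase, and Ifi205, of the interferon-inducible p200 family, differed by -10.69 ± 0.59 and -9.99 ± 0.35.

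Saa3, an acute-phase protein, had 7501 and 6018 CPM with LPS, 7.79 and 6.91 with IL-4 and 11.2 and 8.14 untreated (-9.85 ± 0.28). Acod1, which makes itaconate from the citric acid cycle, had 7322 and 6508 CPM with LPS, 8.69 and 8.95 with IL-4 and 21.6 and 17.1 untreated (-9.61 ± 0.21, adjusted p = 1.55e-05). Acod1 was called below untreated with IL-4 (-1.13 log2 units) and Saa3 was not (-0.39, adjusted p = 0.244). The remaining genes were the chemokine Cxcl10 (-9.03 ± 0.40), the cytokine Il1a (-9.50 ± 0.52), Shisa3, an antagonist of Wnt and FGF receptors (-9.07 ± 0.61), the chemokine Cxcl11, with 679 and 494 counts with LPS and 1 and 1 with IL-4, and the metalloreductase Steap4, with 477 and 459 counts with LPS and 2 and 0 with IL-4. The count ratios of LPS over IL-4 were 850 (95% interval 235 to 7030) for Cxcl11 and 678 (95% interval 187 to 5610) for Steap4. GENCODE vM21 annotates Cxcl11 as a polymorphic pseudogene, so its counts do not show a working chemokine. Of the genes with the largest differences, Scn3a, B3gnt7, St6gal1, Tmem144 and Tbc1d4 on the IL-4 side and Mir155hg, Ptges, Cd38, Cxcl11, Il1a, Fpr2, Shisa3 and Cxcl10 on the LPS side share bases with another annotated gene, so their counts are less certain.

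**Figure D2:**
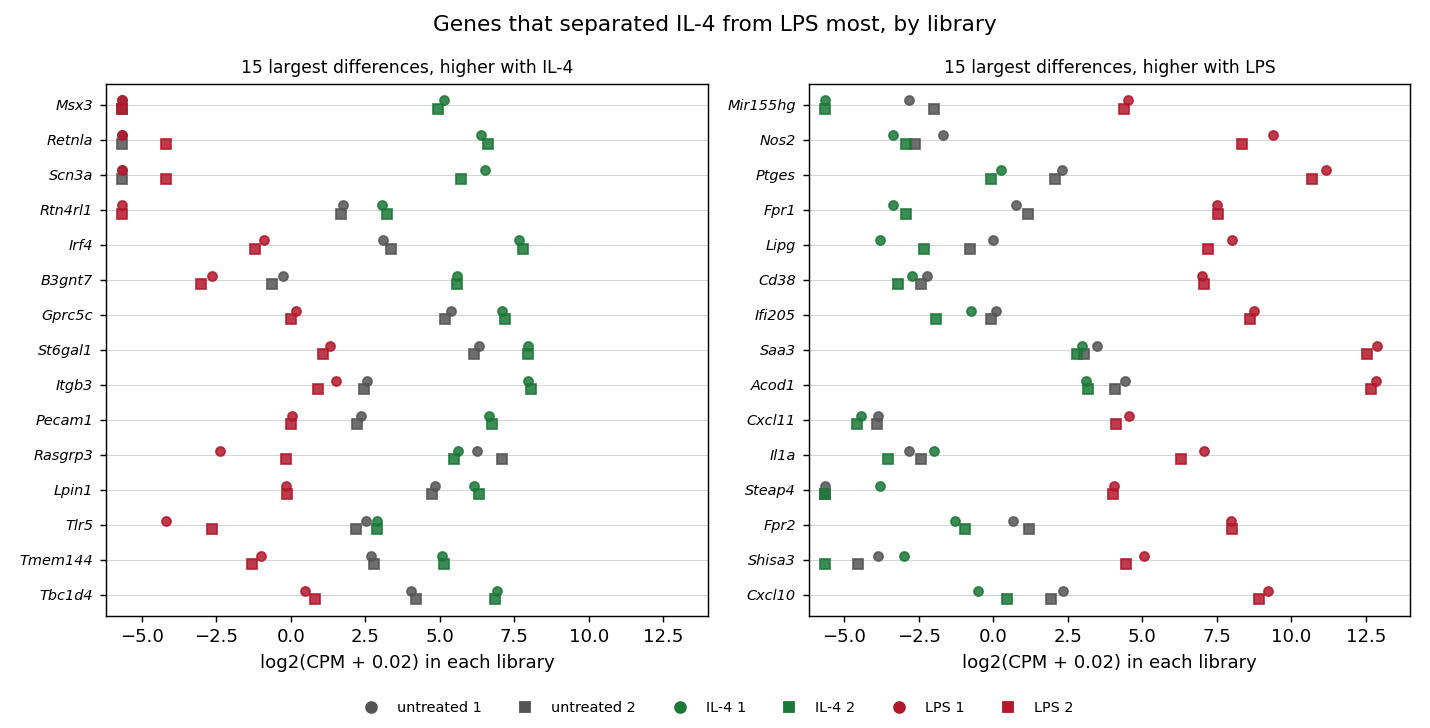
Level of the 15 largest differences each way in each of the 6 libraries, as log2 of CPM plus 0.02 (x axis), with circles for replicate 1, squares for replicate 2, green for IL-4, red for LPS and grey for untreated. LPS lies at or near the far left for genes higher with IL-4, such as Irf4 at 0.522 and 0.419 CPM. Untreated lies there too for Msx3, Retnla and Scn3a. IL-4 lies at or left of untreated for most genes higher with LPS, such as Fpr1 at 0.0779 and 0.112 CPM.

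Promoter letters were read for the genes that the comparison turned on, because STAT6 is known for binding TTCNNNNGAA, other STAT factors for TTCNNNGAA, NF-κB for GGGANNTTCC and interferon-activated factors for GAAANNGAAA. The 250 bases upstream of each start site came from RefSeq (GRCm38.p6), on both strands, and 10056 of the 12506 genes tested had an entry. Each line gives the gene, the motif, the window and its strand, and then the bases 5′ to 3′ along the gene's strand with the motif in capitals. The windows were picked after the matches were known, to show each motif, and they are not a sample of the promoters on either side.
Retnla, STAT-N4, chr16:48842444-48842493, + strand: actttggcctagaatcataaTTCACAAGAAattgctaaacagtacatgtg
Pdcd1lg2, STAT-N4, chr19:29410817-29410866, + strand: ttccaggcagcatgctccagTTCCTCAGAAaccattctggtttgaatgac
Clec7a, STAT-N4, chr6:129472881-129472930, - strand: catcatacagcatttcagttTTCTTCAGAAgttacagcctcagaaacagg
Ptges, STAT-N4, chr2:30903465-30903514, - strand: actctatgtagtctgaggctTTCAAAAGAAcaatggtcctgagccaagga
Il16, kappaB, chr7:83655515-83655564, - strand: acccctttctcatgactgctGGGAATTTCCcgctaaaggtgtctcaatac
Cxcl10, kappaB, chr5:92349019-92349068, - strand: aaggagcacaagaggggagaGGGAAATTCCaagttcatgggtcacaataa
Cxcl10, ISRE, chr5:92349073-92349122, - strand: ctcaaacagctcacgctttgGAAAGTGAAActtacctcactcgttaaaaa
Cxcl2, kappaB, chr5:90903782-90903831, + strand: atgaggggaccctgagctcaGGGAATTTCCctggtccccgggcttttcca
Il6, kappaB, chr5:30013050-30013099, + strand: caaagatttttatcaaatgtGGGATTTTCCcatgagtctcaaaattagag
Ifit1, ISRE, chr19:34640765-34640814, + strand: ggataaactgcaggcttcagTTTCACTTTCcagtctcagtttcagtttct
Socs3, STAT-N3, chr11:117969492-117969540, - strand: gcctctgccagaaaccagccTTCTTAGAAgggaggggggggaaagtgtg
STAT-N4 and STAT-N3 stand for TTCNNNNGAA and TTCNNNGAA, kappaB for GGGANNTTCC and ISRE for GAAANNGAAA, and the Ifit1 window holds the last on the other strand. The Cxcl2 and Il16 matches each overlap a second match of the same motif on the other strand. The Ifit1 window also holds a second GAAANNGAAA match on the other strand, left in small letters. Retnla, Pdcd1lg2, Clec7a and Il16 were higher with IL-4 and the other genes shown with LPS. The same motifs also matched in genes of the opposite direction: TTCNNNNGAA lay in the LPS-side promoters of Ifi205 and Stat2, GGGANNTTCC in that of Csf1 on the IL-4 side, and GAAANNGAAA in those of Socs1, Glul and Cxcl14 on the IL-4 side. Among the 15 largest differences each way, 10 genes on the IL-4 side and 12 on the LPS side had a promoter entry. TTCNNNNGAA lay in 2 of these 10 and 2 of these 12, too few to read as shares. Of all 10056 promoters 5.69% held TTCNNNNGAA, 7.2% TTCNNNGAA, 1.48% GGGANNTTCC and 3.45% GAAANNGAAA. Among the 804 genes called over 2 log2 units higher with LPS, 645 had a promoter entry, and of these 6.36, 10.9, 3.1 and 12.2% held the same motifs. Of the 842 genes called over 2 log2 units higher with IL-4 only 641 had an entry, under 80%, so a share over them is void and not given. The LPS shares are thus set beside all promoters only and do not compare the 2 sides. A match describes letters in this window and says nothing about binding.

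The 5 called genes with the most counts in each direction, apart from Acod1, differed by less. Fth1, the ferritin heavy chain that stores iron, had 32590 and 30150 CPM with LPS, 6575 and 6981 with IL-4 and 17130 and 12450 untreated (-2.21 ± 0.19, adjusted p = 0.000292). β-actin (Actb) had 15300 and 12860 CPM with LPS and 4857 and 5439 with IL-4 (-1.45 ± 0.16), and Lcp1, the actin-bundling plastin of leukocytes, differed by -1.11 ± 0.11. On the IL-4 side Lgals3, the lectin galectin-3, had 3645 and 4017 CPM with IL-4 and 1778 and 1558 with LPS (1.20 ± 0.14), and the clathrin heavy chain Cltc differed by 0.93 ± 0.14. The protease Adam8 (0.61 ± 0.14, adjusted p = 0.0137) was not called without IL-4 replicate 2 or without LPS replicate 2. Gpnmb (0.41 ± 0.13, adjusted p = 0.0418), Csf2rb (0.45 ± 0.15, adjusted p = 0.0456) and lysozyme Lyz2 (-0.37 ± 0.12, adjusted p = 0.0483) sat near the threshold, and none of the 3 was called in any fit that left out an IL-4 or an LPS library. With all libraries kept, Gpnmb and Csf2rb were not called with RLE size factors or DESeq2, nor Lyz2 with upper quartile factors or no filter, and Lyz2 changed sign with library totals alone.

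The receptor of IL-4 itself was higher with LPS. Of 14 genes of the receptor and its signalling, 8 were higher with LPS and 4 with IL-4, with a median of -0.72 log2 units against 0.10 over all genes tested. Here and in the lists below, counts stand beside 29.7% of all genes tested called higher with IL-4 and 23.4% higher with LPS. Il4ra had 2904 and 2174 CPM with LPS, 312 and 325 with IL-4 and 169.9 and 130 untreated (-2.99 ± 0.20, adjusted p = 0.000134), and it rose over untreated with both stimuli (1.09 log2 units with IL-4, 4.08 with LPS). Il13ra1, the partner chain, had 132 and 134 CPM with LPS and 6.77 and 5.02 with IL-4 (-4.50 ± 0.33). The common γ chain Il2rg (-1.27 ± 0.14) and the kinases Jak3 (-1.88 ± 0.12) and Jak1 (-0.63 ± 0.11, not called with library totals alone) were higher with LPS as well, as were the phosphatases Ptpn1 (-1.78 ± 0.14) and Ptpn6 (-1.40 ± 0.10), which restrain cytokine receptors.

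Feedback inhibitors of cytokine receptors were divided. Cish had 39.5 and 38.9 CPM with IL-4 and 1.39 and 0.279 with LPS (5.55 ± 0.55, adjusted p = 0.000522). Socs1 had 75.8 and 75.6 CPM with IL-4, 38.2 and 24.5 with LPS and 0.912 and 0.422 untreated, so it rose with both, and its difference (1.27 ± 0.31, adjusted p = 0.0158) was not called without either IL-4 library or without LPS replicate 2. Socs3 went the other way, with 1597 and 1130 CPM with LPS, 4.8 and 5.22 with IL-4 and 6.55 and 6.36 untreated (-8.09 ± 0.24, adjusted p = 1.7e-05). Among adaptor genes of the insulin and IL-4 receptors, Irs2 had 20.9 and 22.4 CPM with IL-4 and 4.94 and 3.28 with LPS (2.40 ± 0.25). Stat6, the factor IL-4 acts through, was not called, with 313 and 339 CPM with IL-4 and 354 and 337 with LPS and a 95% interval of the difference from -0.33 to 0.17 log2 units.

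The LPS receptor complex was mostly higher with LPS, with 11 of 17 genes against 2 higher with IL-4 and a median of -0.67, or 7 against 4 with library totals. Cd14, the coreceptor that hands LPS to TLR4, had 2124 and 1662 CPM with LPS, 135 in both with IL-4 and 663 and 562 untreated (-3.81 ± 0.17, adjusted p = 4.03e-05), above untreated in one state and below it in the other. The kinase Ikbke had 831 and 844 CPM with LPS and 57.6 and 61.4 with IL-4 (-3.82 ± 0.11), and the adaptor Myd88 differed by -2.58 ± 0.14. Tlr4 itself was not called: its replicates spread widely, with 259 and 133 CPM with IL-4 and 91.3 and 134 with LPS, and the interval of its difference ran from -0.56 to 2.16. Tab1, a partner of the kinase TAK1, was higher with IL-4 (0.96 ± 0.13), and Irak1 was near the threshold (0.30 ± 0.10, adjusted p = 0.0415) and was not called with RLE size factors, by DESeq2 or in any fit that left out an IL-4 or LPS library.

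NF-κB subunits and the inhibitors they induce were on the LPS side. Of 20 genes 18 were higher with LPS and 0 with IL-4, with a median of -2.36. LPS is known to drive NF-κB, so this direction is no independent evidence. Irak3, an inactive kinase that brakes TLR signalling, had 592 and 551 CPM with LPS, 15.03 and 15.6 with IL-4 and 51.2 and 51.1 untreated (-5.22 ± 0.11, adjusted p = 1.55e-05). Nfkbiz, a nuclear IκB protein, had 271 and 228 CPM with LPS, 4.57 and 3.07 with IL-4 and 40.2 and 53.7 untreated (-6.03 ± 0.29). Both were below untreated with IL-4. The inhibitors Nfkbia (-3.30 ± 0.16), Tnfaip3 (-3.07 ± 0.15) and Tnip1 (-3.96 ± 0.18) and the subunits Nfkb2 (-2.13 ± 0.17), Relb (-1.93 ± 0.19) and Rela (-1.19 ± 0.15) were higher with LPS. Nfkb1, the p105 precursor, rose with both stimuli and was not called between them, with 483 and 512 CPM with IL-4, 579 and 511 with LPS and 175 and 169 untreated. Its sign turned with upper quartile factors and library totals, and with the latter it was called higher with IL-4 (0.35, edgeR adjusted p = 0.02).

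Genes of alternative activation showed the widest gap in the IL-4 direction. Of 23 tested 19 were higher with IL-4 and 3 with LPS, with a median of 4.12. This list was drawn up for IL-4 responses, so its direction is no independent evidence. Arg1, the arginase, had 1074 and 1160 CPM with IL-4, 41.4 and 32.3 with LPS and 3.07 and 2.39 untreated (4.92 ± 0.19, adjusted p = 2.74e-05), so it rose with both stimuli (8.67 and 3.75 log2 units) and parted by level. Chil3, the chitinase-like protein Ym1, had 33.1 and 27.6 CPM with IL-4, 0.731 and 0.699 with LPS and 0.792 and 0.68 untreated (5.40 ± 0.18, adjusted p = 1.94e-05). Chil4, its relative, had 87 and 96 counts with IL-4 and 0 in both LPS libraries, at least 42.1-fold higher, and reads of such near-identical genes can be shared between them.

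Mrc1, the mannose receptor, had 3433 and 2613 CPM with IL-4, 439 and 460 with LPS and 207 and 291 untreated (2.75 ± 0.22, adjusted p = 0.000231). Egr2, an immediate early factor, had 382 and 422 CPM with IL-4, 13.7 and 13.8 with LPS and 35.1 and 35.8 untreated (4.87 ± 0.11, adjusted p = 1.55e-05). Pparg, a lipid-sensing nuclear receptor, stood at 56.9 and 58.02 CPM with IL-4 and 9.6 and 9.92 with LPS (2.56 ± 0.11, adjusted p = 3.04e-05). Untreated cells had 41.1 and 44.96 CPM, so the fall with LPS (-2.14 log2 units) exceeded the rise with IL-4 (0.42). Cdh1 (E-cadherin), Flt1, a VEGF receptor, and Mgl2, a galactose-binding lectin, differed by 5.58 ± 0.19, 4.83 ± 0.19 and 4.35 ± 0.15. The 3 members higher with LPS were Ccl22 (-1.34 ± 0.28, adjusted p = 0.00942), the histone demethylase Kdm6b (-0.55 ± 0.16, adjusted p = 0.0286) and the factor Tfec (-0.38 ± 0.11, adjusted p = 0.0314), and Ccl22 had 6.16 and 3.7 CPM with LPS and 1.71 and 2.17 with IL-4. Ccl22 was not called without IL-4 replicate 1, nor Kdm6b and Tfec in any fit that left out an IL-4 or LPS library, and Tfec changed sign with library totals alone. With upper quartile factors or library totals Kdm6b was not called either, and 1 member in place of 3 was higher with LPS. Ccl17, a chemokine named with them, had 20 counts over the 6 libraries and was not tested.

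Cytokine genes were higher with LPS in 15 of 20 cases and with IL-4 in 4, with a median of -3.51, or -3.32 with the 2 genes at 0 counts with IL-4 set to their bound. Il1b had 1623 and 1013 CPM with LPS, 2.62 and 2.44 with IL-4 and 3.98 and 3.82 untreated (-9.02 ± 0.31, adjusted p = 2.12e-05). Tnf had 445 and 353 CPM with LPS, 9.34 and 9.73 with IL-4 and 17.3 and 16.04 untreated (-5.39 ± 0.16, adjusted p = 1.7e-05), and it was called below untreated with IL-4 (-0.81 log2 units). Il6 had 183 and 92 counts with LPS and 1 and 1 with IL-4, a ratio of 199 (95% interval 54.6 to 1650). Il12b had 44 and 21 counts with LPS and 0 and 1 with IL-4, a ratio of 94.2 (95% interval 16.3 to 3780). The groups did not overlap in any of these 4 genes, as in 80.3% of all genes tested.

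Il10, which restrains macrophage activation, had 38.2 and 25.9 CPM with LPS, 5.48 and 5.72 with IL-4 and 7.68 and 8.44 untreated (-2.52 ± 0.21, adjusted p = 0.000269), and Il1rn, the antagonist of the interleukin-1 receptor, had 3225 and 2709 CPM with LPS and 128 and 147 with IL-4 (-4.43 ± 0.17). Tgfb1, another restraining cytokine, was not called (0.40 ± 0.18, adjusted p = 0.106), though it was called higher with IL-4 with library totals, without untreated replicate 1 or 2 and in the fit of the IL-4 and LPS libraries alone (0.391, edgeR adjusted p = 0.0414). Interferon-β (Ifnb1) had 10 and 12 counts with LPS and 0 with IL-4, at least 10.6-fold higher with LPS. Csf3 had 169 and 66 counts with LPS and 0 with IL-4, at least 114-fold higher with LPS, and was not called by DESeq2. The 4 cytokines higher with IL-4 differed by less: Il16 (1.33 ± 0.15), Lif (1.18 ± 0.29), Csf1, the macrophage growth factor (0.85 ± 0.17), and Osm (0.76 ± 0.20). Il16 was called below its untreated 11.04 and 9.12 CPM with both stimuli. Lif was not called by DESeq2 or without IL-4 replicate 1 or LPS replicate 1, nor Osm without either IL-4 library or LPS replicate 2.

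Chemokines were higher with LPS in 17 of 20 cases and with IL-4 in 2, with a median of -2.74. Ccl5, which draws T cells, had 2222 and 1597 CPM with LPS, 7.86 and 8.56 with IL-4 and 11.97 and 9.97 untreated (-7.86 ± 0.25, adjusted p = 1.85e-05). Cxcl2, which draws neutrophils, had 331 and 253 CPM with LPS, 4.2 and 4.1 with IL-4 and 6.26 and 7.25 untreated (-6.13 ± 0.20, adjusted p = 1.93e-05). Cxcl1 and Cxcl3 of the same cluster differed by -8.76 ± 0.33 and -7.34 ± 0.24. The 2 chemokines higher with IL-4 were Ccl24, which draws eosinophils, at 15.2 and 15.7 CPM with IL-4 and 3.58 and 2.83 with LPS (2.27 ± 0.15, adjusted p = 0.000131), and Cxcl14 (1.51 ± 0.18), whose untreated level of 39.7 and 30.5 CPM was above both.

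Chemokine receptors had 7 of 9 members higher with LPS and 1 with IL-4. The latter was Cxcr4, the receptor of Cxcl12, with 145 and 157 CPM with IL-4, 8.73 and 12.2 with LPS and 340.4 and 283 untreated (3.85 ± 0.20, adjusted p = 6.13e-05). Cx3cr1, the fractalkine receptor, fell below its untreated 144 and 137 CPM with both stimuli, to 5.14 and 5.69 CPM with IL-4 and 47.05 and 51.2 with LPS (-3.18 ± 0.12, adjusted p = 2.37e-05). Ccrl2, a non-signalling receptor for chemerin, was higher with LPS (-3.83 ± 0.22).

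All 32 interferon response genes tested were higher with LPS, each by over 1 log2 unit, with a median of -3.64, and this count was also 32 with RLE, upper quartile and library-total scaling and with DESeq2. Their summed counts made up 2.13 and 2.01% of the LPS libraries, 0.199 and 0.195% of the IL-4 libraries and 0.256 and 0.246% of the untreated ones. These genes were listed as interferon responses, which LPS is known to start, so their direction is no independent evidence. Ifit1, which binds foreign RNA, had 1742 and 1638 CPM with LPS, 14.1 and 16.8 with IL-4 and 71.8 and 61.5 untreated (-6.78 ± 0.17, adjusted p = 1.7e-05). Ifit3 had 920 and 866 CPM with LPS, 12.8 and 14.2 with IL-4 and 75.6 and 71.3 untreated (-6.05 ± 0.13, adjusted p = 1.55e-05), and its reads may be shared with close paralogs. Both were below untreated with IL-4, as were 17 of the 32 genes by the same call, beside 10.5% of all genes tested. The antiviral enzyme Rsad2 (-6.89 ± 0.24), the ubiquitin-like Isg15 (-6.32 ± 0.24) and the guanylate-binding Gbp2 (-5.87 ± 0.19) differed by much more than Irf9, which carries the interferon signal (-1.29 ± 0.12), and the virus-tethering Bst2 (-1.75 ± 0.16).

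Interferon regulatory and STAT factors had 10 of 15 members higher with LPS and 1, Irf4, with IL-4, or 7 and 4 with library totals. Stat2 (-2.43 ± 0.13), Stat3 (-2.14 ± 0.16) and Irf7 (-2.56 ± 0.18) were among those higher with LPS. Irf1 rose with both stimuli and was not called between them, with 198 and 219 CPM with IL-4, 257 and 244 with LPS and 67.3 and 59.6 untreated. It was called higher with LPS without untreated replicate 1 (-0.277, edgeR adjusted p = 0.0452) and in the fit of the IL-4 and LPS libraries alone (-0.275, edgeR adjusted p = 0.0431), and its sign turned with library totals.

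**Figure D3:**
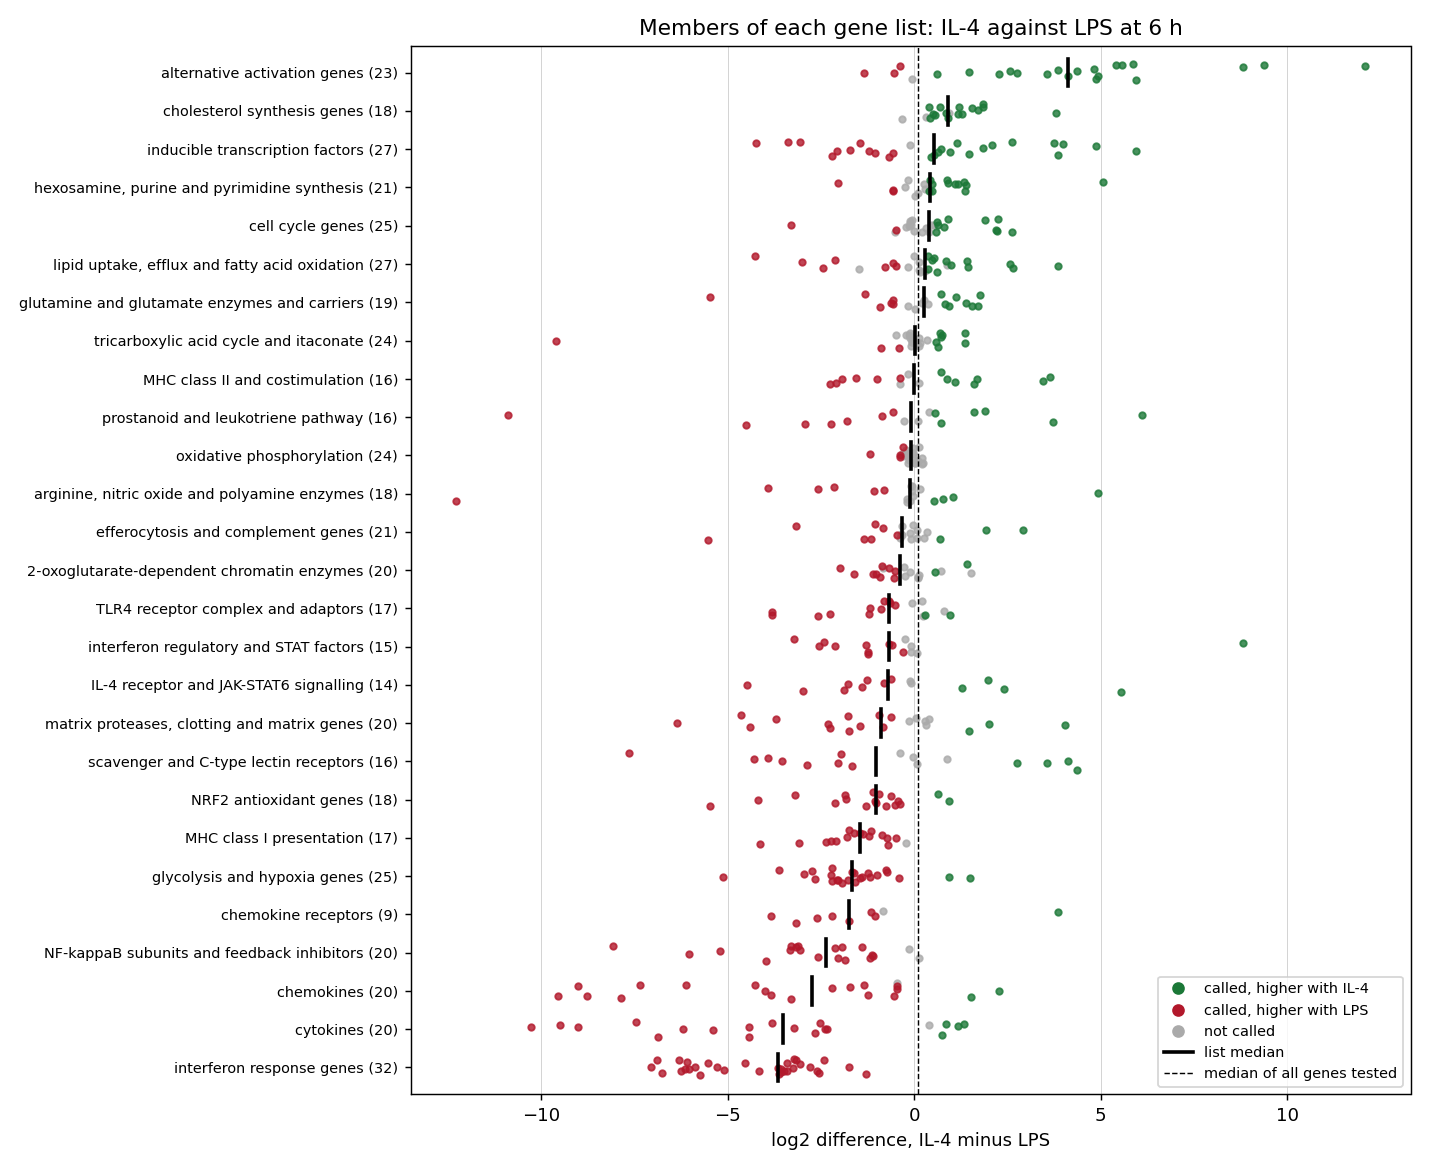
Log2 difference (IL-4 minus LPS, x axis) of every tested member of 27 gene lists, 1 point per gene, green where called higher with IL-4, red where called higher with LPS and grey where not called. Black bars are list medians, from 4.12 for alternative activation to -3.64 for interferon response genes, and the dashed line is the median of all genes tested, 0.10.

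Genes of arginine metabolism differed both ways. Of 18 genes 4 were higher with IL-4 and 6 with LPS (9 and 5 with library totals), beside 29.7% and 23.4% of all genes tested. The median of -0.10 turned positive with upper quartile factors and library totals. Arg1, which makes ornithine and urea, differed by 4.92 ± 0.19, while Nos2, which makes nitric oxide, differed by -12.28 ± 0.63. Of the enzymes that serve nitric oxide synthesis, Ass1, which rebuilds arginine from citrulline, had 209.5 and 171 CPM with LPS, 12.5 and 12.7 with IL-4 and 19.7 and 13.9 untreated (-3.91 ± 0.21, adjusted p = 6.71e-05). Gch1, which starts synthesis of the cofactor tetrahydrobiopterin, had 152 and 121 CPM with LPS and 22.5 and 23.6 with IL-4 (-2.57 ± 0.18). Pts, the next enzyme of that cofactor, was higher with IL-4 (0.53 ± 0.11), and Asl, which completes the rebuilding of arginine, was not called (0.16 ± 0.10) except with library totals. Pts was not called without IL-4 replicate 1 or 2 or without LPS replicate 2. Arg2, the mitochondrial arginase, was on the LPS side (-2.15 ± 0.21).

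Slc7a2, a carrier that brings arginine into the cell, rose from 16.8 and 20.1 CPM untreated to 762 and 763 CPM with IL-4 and 834 and 769 with LPS, with a 95% interval of the difference from -0.36 to 0.22 log2 units. The difference was not called, but with library totals alone it was, higher with IL-4 (0.408, edgeR adjusted p = 0.0165). In the polyamine branch, Sat1, which acetylates polyamines for export, was higher with IL-4 (1.04 ± 0.11), as was the spermidine synthase Srm (0.78 ± 0.12). Odc1, which starts that branch from ornithine, was higher with LPS (-0.81 ± 0.17), with no call without IL-4 replicate 1, without LPS replicate 1 or with library totals, and so was the spermine oxidase Smox (-1.08 ± 0.15).

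Prostanoid genes were also divided along the pathway, 6 of 16 higher with IL-4 and 7 with LPS, with a median of -0.09 that turned positive with upper quartile factors and library totals. Pla2g4a, which frees arachidonic acid, had 314 and 323 CPM with LPS and 49.9 and 34.03 with IL-4 (-2.92 ± 0.33). The 2 cyclooxygenases went opposite ways. Ptgs1 had 354 and 413 CPM with IL-4, 6.02 and 5.03 with LPS and 56.9 and 53.1 untreated (6.12 ± 0.17, adjusted p = 1.7e-05). Ptgs2 had 661 and 483 CPM with LPS, 32.1 and 18.4 with IL-4 and 5.38 and 10.2 untreated (-4.50 ± 0.44, adjusted p = 0.0005). Downstream, the thromboxane synthase Tbxas1 was higher with IL-4, at 437 and 457 CPM against 119.6 and 120.4 with LPS (1.90 ± 0.09, adjusted p = 4.68e-05). Ptges, as given above, was on the LPS side.

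Enzymes and receptors at the end of the pathway differed too. Hpgd, which inactivates prostaglandins, had 39.6 and 31.1 CPM with IL-4, 2.54 and 2.79 with LPS and 60.5 and 96 untreated (3.73 ± 0.28). Ptger4, a receptor of prostaglandin E, had 116 and 143 CPM with LPS, 26.4 and 28.3 with IL-4 and 52.9 and 63.4 untreated (-2.24 ± 0.16, adjusted p = 0.000146). The leukotriene enzymes Ltc4s (1.61 ± 0.25) and Lta4h (0.71 ± 0.09) were higher with IL-4, while Alox5, which starts leukotriene synthesis, was called below untreated with both and not called between them except with library totals, at 1.27 and 1.03 CPM with IL-4 and 0.835 and 0.908 with LPS.

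**Figure D4:**
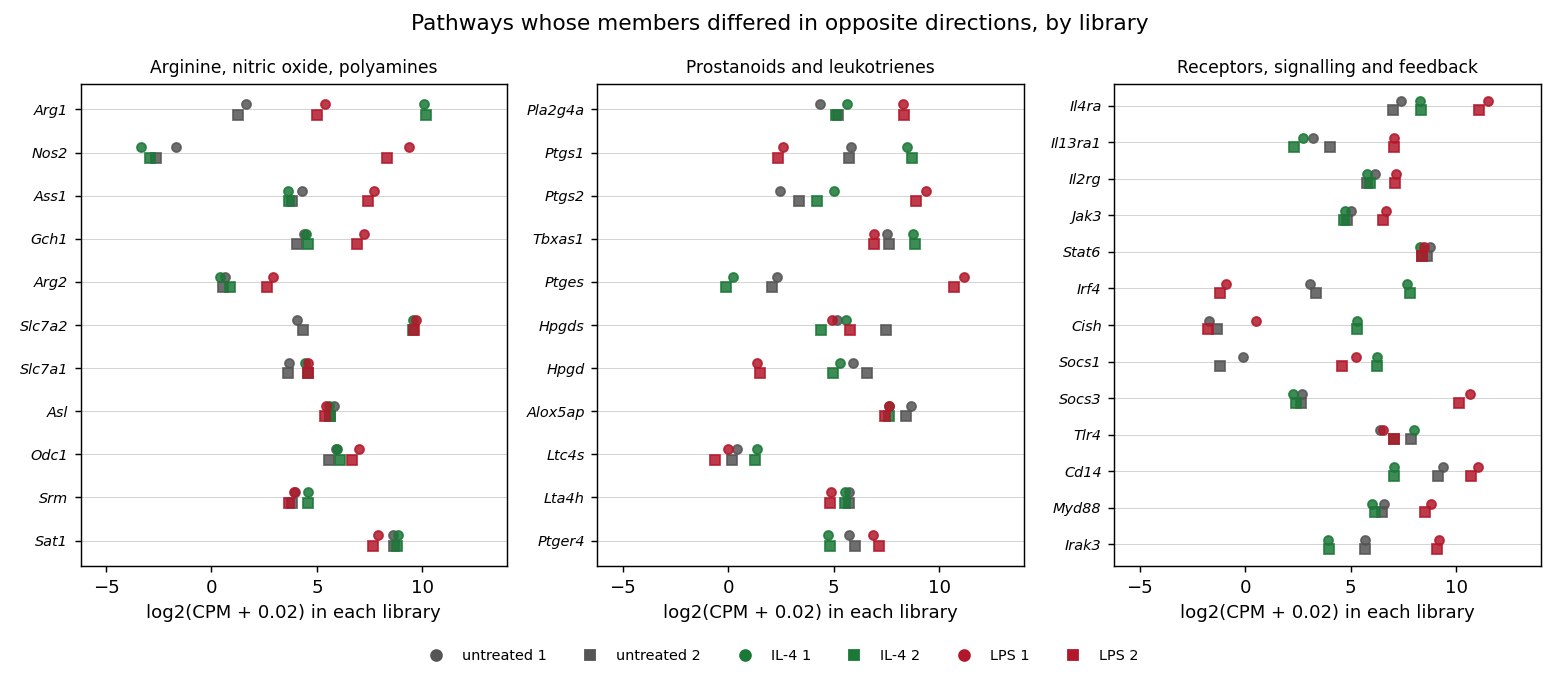
Level of 35 genes of 3 pathways in each of the 6 libraries, as log2 of CPM plus 0.02 (x axis), with circles for replicate 1 and squares for replicate 2. Arg1 and Ptgs1 are highest with IL-4 (green), Nos2, Ptges and Il4ra with LPS (red), and the Slc7a2 points of both stimuli lie together far to the right of untreated (grey).

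Glycolysis and hypoxia genes were on the LPS side in 23 of 25 cases, with 2 higher with IL-4 and a median of -1.66. Its summed counts were 1.81 and 1.62% of the LPS libraries and 0.72 and 0.795% of the IL-4 libraries. The bifunctional enzymes that set the regulator fructose 2,6-bisphosphate went opposite ways: Pfkfb3 had 1309 and 999.5 CPM with LPS, 32.6 and 33.6 with IL-4 and 46.1 and 42.1 untreated (-5.12 ± 0.18, adjusted p = 2.04e-05). Pfkfb4 had 134 and 138 CPM with IL-4, 48.9 and 47.8 with LPS and 87.5 and 74.5 untreated (1.49 ± 0.12, adjusted p = 0.000207). Pfkm, the muscle-type phosphofructokinase, was the other gene higher with IL-4 (0.93 ± 0.12). The glucose carrier Slc2a1 had 806 and 626 CPM with LPS and 103 and 123 with IL-4 (-2.67 ± 0.21), Hif1a differed by -2.07 ± 0.26, and Bnip3, a hypoxia-induced mitochondrial protein, by -2.75 ± 0.11, adjusted p = 2.7e-05.

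In the citric acid cycle, of 24 genes 7 were higher with IL-4, 3 with LPS and 14 were not called. Over all genes tested 29.7% were higher with IL-4 and 23.4% with LPS, so the IL-4 count was near the share of all genes. The median of 0.01 changed sign with RLE size factors. With library totals alone 19 were called higher with IL-4. The largest difference was Acod1. The NADP-linked isocitrate dehydrogenases, which make α-ketoglutarate, were higher with IL-4: Idh1 had 330 and 334 CPM with IL-4, 118 and 139.6 with LPS and 315 and 441 untreated (1.36 ± 0.18), and Idh2 had 52.7 and 56.6 CPM with IL-4, 21.7 and 21.1 with LPS and 60.3 and 50.1 untreated (1.35 ± 0.13, adjusted p = 0.000411). The fumarase Fh1 differed by 0.73 ± 0.09. Pyruvate carboxylase Pcx was higher with LPS (-0.90 ± 0.22, adjusted p = 0.0174) but was not called with library totals, without either IL-4 library or without LPS replicate 2. Oxidative phosphorylation had 20 of 24 genes not called, 4 higher with LPS and 0 with IL-4, and a median of -0.09 that turned positive with upper quartile factors and library totals. With library totals 14 were called higher with IL-4. Cytochrome c (Cycs) was higher with LPS (-1.19 ± 0.13, adjusted p = 0.000821), and Cox7a2 (-0.38 ± 0.11, adjusted p = 0.032), a subunit of the terminal oxidase, was not called with upper quartile factors, library totals or no filter, or in any fit that left out an IL-4 or LPS library.

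Lipid genes were mixed, with 12 of 27 higher with IL-4, 7 with LPS and a median of 0.28. With library totals 19 and 5 were called, and with RLE size factors 10 and 8. Acsl1, which activates fatty acids, had 1210 and 1108 CPM with LPS, 58.4 and 62.5 with IL-4 and 77.8 and 73.4 untreated (-4.26 ± 0.11, adjusted p = 1.7e-05). Nr1h3, the oxysterol receptor LXRα, was higher with LPS (-2.45 ± 0.12, adjusted p = 5.07e-05), as was the cholesterol exporter Abca1 (-2.13 ± 0.16). The other exporter, Abcg1, was higher with IL-4 (1.45 ± 0.13). Ppargc1b, a coactivator of mitochondrial and fatty acid oxidation genes, had 18.7 and 18.4 CPM with IL-4 and 1.22 and 1.33 with LPS (3.86 ± 0.17, adjusted p = 4.14e-05). The fatty acid oxidation enzymes Acadm (1.42 ± 0.17) and Cpt1a (0.52 ± 0.10) differed by less, and Cpt1a was not called without replicate 2 of either group.

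Cholesterol synthesis was on the IL-4 side in 15 of 18 genes and on the LPS side in 0, with a median of 0.91. Dhcr7, its last enzyme, had 27.3 and 29.6 CPM with IL-4, 1.77 and 2.34 with LPS and 29.4 and 25.1 untreated (3.79 ± 0.18, adjusted p = 4.68e-05). Insig1, which holds back the sterol-sensing factors, had 96.3 and 100.3 CPM with IL-4, 26.2 and 28.7 with LPS and 95.7 and 92.3 untreated (1.84 ± 0.10, adjusted p = 7.13e-05). In both genes LPS was the lowest group. With IL-4 against untreated 0 of the 18 genes were called by edgeR in either direction, and with LPS 16 were called below untreated. Over all genes tested 20.1% were called against untreated with IL-4 and 29.4% were called below it with LPS.

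Glutamine and glutamate genes had 8 of 19 members higher with IL-4 and 6 with LPS, or 11 and 3 with library totals. The shares of all genes tested were 29.7% and 23.4%. Glul, which makes glutamine from glutamate, had 620.4 and 652 CPM with IL-4, 241 and 243 with LPS and 717 and 624 untreated (1.39 ± 0.11, adjusted p = 0.000199). Slc1a5, a glutamine carrier, had 62.9 and 65.4 CPM with IL-4 and 23.8 and 20.2 with LPS (1.55 ± 0.12, adjusted p = 0.000193). The cystine carrier Slc7a11, which exports glutamate, had 462 and 584 CPM with LPS, 13.7 and 10.04 with IL-4 and 13.5 and 18.9 untreated (-5.46 ± 0.28, adjusted p = 5.47e-05), and the serine enzyme Psat1 was also higher with LPS (-1.32 ± 0.16). The aminotransferases Got1 (1.77 ± 0.16) and Gpt2 (1.72 ± 0.17) were higher with IL-4.

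Nucleotide and hexosamine synthesis leaned to IL-4, with 12 of 21 genes higher there and 3 with LPS, or 15 and 1 with library totals. Prps1, which makes the ribose donor of nucleotides, had 239.8 and 242 CPM with IL-4, 7.2 and 7.26 with LPS and 9.55 and 9.1 untreated (5.06 ± 0.11, adjusted p = 1.55e-05). Pfas, a purine enzyme that uses glutamine, differed by 1.39 ± 0.10, adjusted p = 0.000151. Mthfd2, a mitochondrial folate enzyme, had 35.8 and 34.1 CPM with LPS and 8.72 and 8.18 with IL-4 (-2.05 ± 0.11, adjusted p = 6.31e-05), and Gfpt1, which starts hexosamine synthesis, was slightly higher with LPS (-0.57 ± 0.12, adjusted p = 0.0105), without a call with library totals or without either IL-4 library or LPS replicate 2. Cell cycle genes had 10 of 25 members higher with IL-4 and 2 with LPS, or 15 and 1 with library totals. The shares of all genes tested were 29.7% and 23.4%. Ccnd1 and Ccnd2, both D-type cyclins, went opposite ways: Ccnd1 had 95.3 and 96.2 CPM with IL-4 and 20.01 and 20.7 with LPS (2.23 ± 0.09, adjusted p = 3.37e-05). Ccnd2 had 6.41 and 5.58 CPM with IL-4 and 67.7 and 50.96 with LPS (-3.31 ± 0.19, adjusted p = 8.23e-05). Cdk1 (2.23 ± 0.13) and the helicase genes Mcm2 (2.63 ± 0.16) and Mcm7 (1.90 ± 0.13) were higher with IL-4. The replication clamp Pcna was slightly higher with LPS (-0.49 ± 0.09, adjusted p = 0.00518) and was not called with upper quartile factors, library totals or without IL-4 replicate 1. Against untreated, 1 of the 25 genes was called above and 2 below with IL-4, and 2 above and 15 below with LPS. Over all genes tested these shares were 9.64, 10.5, 22.8 and 29.4%. Cdk1 was not called against untreated with IL-4, nor Pcna with LPS.

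Antioxidant genes of the factor NRF2 were higher with LPS in 16 of 18 cases and with IL-4 in 2, with a median of -1.03. With upper quartile factors 13 were higher with LPS and with library totals 10, the median then being -0.55. Gsr, which restores glutathione, had 338 and 316 CPM with LPS, 16.4 and 19.2 with IL-4 and 43.4 and 38.2 untreated (-4.20 ± 0.14, adjusted p = 2e-05). Hmox1, which degrades haem, had 6015 and 5815 CPM with LPS, 594 and 688 with IL-4 and 1467 and 1092 untreated (-3.21 ± 0.18). Thioredoxin Txn1 had 462 and 448 CPM with LPS and 103 and 104 with IL-4 (-2.13 ± 0.09, adjusted p = 3.22e-05). In these 3 genes LPS was the highest and IL-4 the lowest of the 3 groups. The 2 genes higher with IL-4 were Gclc, the catalytic subunit of glutathione synthesis (0.92 ± 0.14), and the quinone reductase Nqo1 (0.65 ± 0.19, adjusted p = 0.0289). Gclm, the partner of Gclc, was higher with LPS (-0.62 ± 0.12). Nqo1 was not called without IL-4 replicate 2 or LPS replicate 1, nor Gclm without IL-4 replicate 2 or with library totals.

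**Figure D5:**
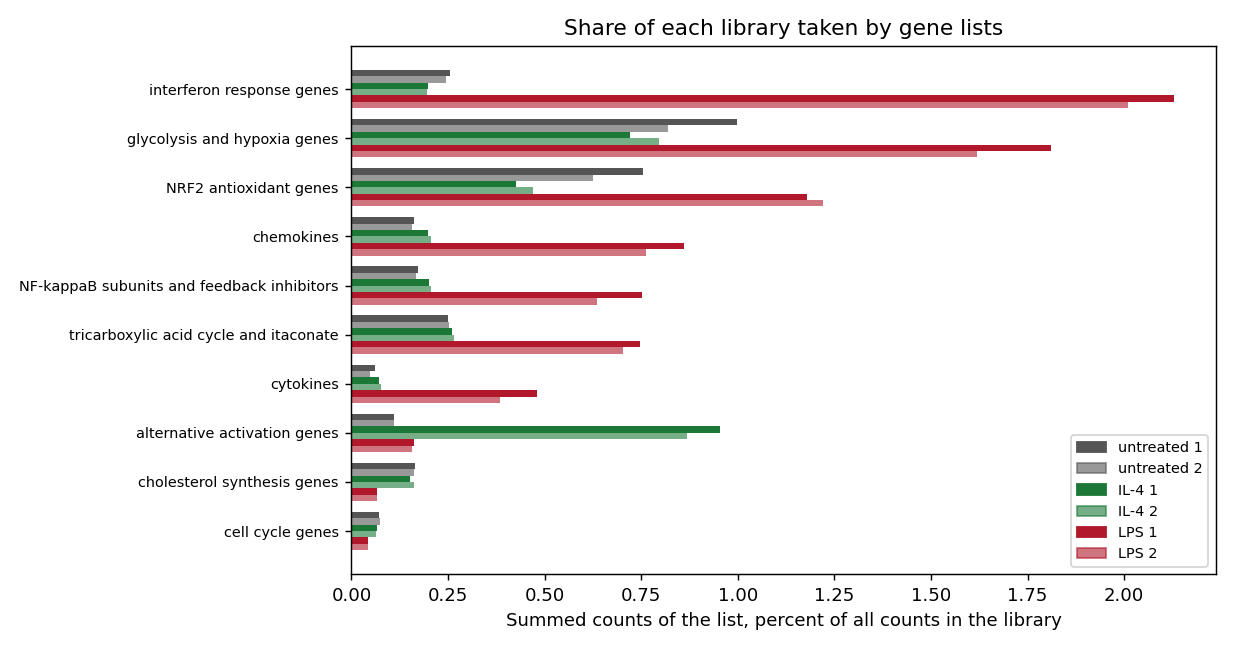
Summed counts of 10 gene lists as a percent of all counts in each of the 6 libraries (x axis, from 0), 1 bar per library, grey for untreated, green for IL-4 and red for LPS. Interferon response genes reach 2.13 and 2.01% with LPS against 0.199 and 0.195% with IL-4, and alternative activation genes reach 0.954 and 0.869% with IL-4 against 0.163 and 0.156% with LPS.

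Of the antigen presentation genes, those of class I had a clear direction and those of class II did not. Of 17 MHC class I genes 16 were higher with LPS and 0 with IL-4, with a median of -1.46: Nlrc5, the activator of class I genes, had 429.7 and 384 CPM with LPS and 22.4 and 23.6 with IL-4 (-4.14 ± 0.13, adjusted p = 1.84e-05), and the proteasome activator Psme2 differed by -2.38 ± 0.10, adjusted p = 3.66e-05. Class II and costimulation genes were mixed, with 7 of 16 higher with IL-4, 6 with LPS and a median of -0.02 that turned positive with upper quartile factors and library totals. Ciita, the activator of class II genes, had 31.1 and 37.1 CPM with IL-4, 2.75 and 3.46 with LPS and 21.1 and 19.04 untreated (3.46 ± 0.17, adjusted p = 5.21e-05). The peptide-loading chain H2-DMa followed it (1.69 ± 0.18), while the class II chain H2-Ab1 was higher with LPS, at 325 and 255 CPM against 139 and 150.3 with IL-4.

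The ligands of the inhibitory receptor PD-1 went opposite ways. Pdcd1lg2 had 82.1 and 85.03 CPM with IL-4, 1.43 in both with LPS and 0.264 and 0.164 untreated (5.87 ± 0.17, adjusted p = 1.7e-05). Cd274 had 258 and 264 CPM with IL-4, 749.6 and 781 with LPS and 38.8 and 52.5 untreated (-1.55 ± 0.16, adjusted p = 0.000552), so that it rose with both stimuli and more with LPS. Of the other costimulatory genes, Cd40 had 373 and 256 CPM with LPS and 66.6 and 65.5 with IL-4 (-2.25 ± 0.19, adjusted p = 0.000293), Icosl was higher with LPS (-2.09 ± 0.16, adjusted p = 0.00019), and Cd80 (1.60 ± 0.15, adjusted p = 0.000436) and Cd86 (0.71 ± 0.10) were higher with IL-4. Icosl was called below its untreated 17.9 and 15.03 CPM with IL-4 and was not called against it with LPS. Cd80 was called below its untreated 4.25 and 4.76 CPM with LPS and was not called against it with IL-4.

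Receptors for sugars and debris were divided into separate sets. Of 16 genes 4 were higher with IL-4, namely Mrc1, Clec10a (3.56 ± 0.23), Mgl2 and Clec7a, and 8 were higher with LPS. Clec7a, the fungal glucan receptor Dectin-1, had 906 and 769 CPM with IL-4, 46.7 and 49.9 with LPS and 82.3 and 125 untreated (4.12 ± 0.24, adjusted p = 7.8e-05). Clec4e, the receptor Mincle for mycobacterial glycolipid, had 4451 and 4314 CPM with LPS, 22.5 and 20.9 with IL-4 and 88.1 and 84.6 untreated (-7.66 ± 0.13, adjusted p = 1.55e-05). Clec4d, its neighbour and partner, had 1562 and 1548 CPM with LPS, 130.3 and 134 with IL-4 and 759 and 738 untreated (-3.56 ± 0.10, adjusted p = 1.7e-05). The scavenger receptors Msr1 (-4.29 ± 0.42) and Marco (-3.92 ± 0.17) were higher with LPS.

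Efferocytosis and complement genes had 7 of 21 members higher with LPS and 3 with IL-4, with a median of -0.32. Of all genes tested 23.4% were higher with LPS and 29.7% with IL-4. With library totals the median turned positive, and 6 were higher with LPS and 7 with IL-4. Mertk, a receptor for dying cells, had 58.1 and 55.9 CPM with IL-4, 11.6 and 18.3 with LPS and 85.7 and 118 untreated (1.93 ± 0.26, adjusted p = 0.00167). Itgax, the integrin CD11c, had 37.2 and 42.7 CPM with IL-4 and 5.85 and 4.75 with LPS (2.92 ± 0.18, adjusted p = 8.97e-05). Cfb, factor B of complement, had 4.18 and 4.02 CPM with LPS and 0.13 and 0.0448 with IL-4 (-5.54 ± 0.35, adjusted p = 0.000106), and Cd47, the signal against uptake, differed by -1.16 ± 0.09, adjusted p = 0.000253. The C1q chain C1qa, with 1360 and 1413 CPM with IL-4 and 1403 and 1225 with LPS, was not called except with library totals.

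Matrix and clotting genes were higher with LPS in 12 of 20 cases and with IL-4 in 3, or 10 and 7 with library totals. Mmp14, a membrane-bound matrix protease, had 1364 and 1169 CPM with LPS, 14.4 and 16.1 with IL-4 and 31.6 and 22.8 untreated (-6.37 ± 0.23, adjusted p = 2.14e-05). Timp1, a protease inhibitor, had 203 and 148 CPM with LPS and 13.2 and 13.7 with IL-4 (-3.71 ± 0.18, adjusted p = 4.98e-05), while its relative Timp2 was higher with IL-4 (1.47 ± 0.13, adjusted p = 0.000341). Plau, the plasminogen activator urokinase, had 151 and 175 CPM with IL-4, 10.02 and 9.88 with LPS and 165 and 155 untreated (4.03 ± 0.13, adjusted p = 1.85e-05), and its receptor Plaur (-1.76 ± 0.25) was on the LPS side. Tissue factor F3 (-2.32 ± 0.25) was higher with LPS and its partner F7 (2.01 ± 0.27) with IL-4.

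Inducible transcription factors had 15 of 27 members higher with IL-4 and 11 with LPS. Klf4 had 90.6 and 91.04 CPM with IL-4, 6.05 and 6.46 with LPS and 33.1 and 32.6 untreated (3.86 ± 0.11, adjusted p = 1.7e-05). Batf3 (5.95 ± 0.20), Bhlhe40 (3.74 ± 0.16) and Klf2 (2.62 ± 0.20) were higher with IL-4 too. Batf2, a relative of Batf3, went the other way (-3.38 ± 0.16, adjusted p = 4.6e-05), with Cebpd (-3.05 ± 0.32) and Cebpb (-2.06 ± 0.33). Their relative Cebpa, a factor of the myeloid lineage, had 347 and 381 CPM with IL-4, 29.8 and 30.5 with LPS and 250.2 and 161 untreated (3.59 ± 0.23, adjusted p = 0.000113). Fos was called below its untreated 342 and 331 CPM with both, at 195 and 220.3 CPM with LPS and 62.4 and 62.3 with IL-4 (-1.74 ± 0.10, adjusted p = 8.49e-05).

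Chromatin enzymes that use α-ketoglutarate had 9 of 20 members higher with LPS and 2 with IL-4, with a median of -0.39. With library totals the median turned positive, and 5 were higher with LPS and 6 with IL-4. Jmjd6 had 128 and 113 CPM with LPS and 30.5 and 30.4 with IL-4 (-1.98 ± 0.13, adjusted p = 0.000113), and the demethylase Kdm5b differed by -1.62 ± 0.11, adjusted p = 0.000137. Kdm2b was higher with IL-4, at 39.2 and 38.5 CPM against 14.7 in both (1.40 ± 0.10, adjusted p = 0.000142), and the RNA demethylase Fto differed by 0.57 ± 0.10, adjusted p = 0.00571, with no call without IL-4 replicate 2. Kdm6b, which removes a repressive histone mark, had 22.01 and 23.7 CPM with IL-4, 35.04 and 31.9 with LPS and 10.6 and 7.97 untreated, so it rose with both stimuli and differed little between them.

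Some genes changed from untreated with both stimuli and were not called between them. They were chosen after their values were seen. F10, clotting factor X, had 29.7 and 35.6 CPM with IL-4, 29.2 and 24.5 with LPS and 2.04 and 1.64 untreated, with a 95% interval of the difference from -0.11 to 0.68 log2 units, and was called higher with IL-4 with library totals alone. Thbs1, thrombospondin, was lower with both, at 75.7 and 90.1 CPM with IL-4, 96.5 and 85.5 with LPS and 398 and 317 untreated, with an interval from -0.52 to 0.25. Slc7a2, Nfkb1 and, near the threshold, Irf1 are described above. These intervals bound how far the 2 states may differ and do not show that they are equal.

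Markers of other cells were low and are given with the genes they moved with. Of 8 neutrophil markers 5 were tested and 3 were higher with LPS, with Camp at 29 and 38 counts with LPS and 0 and 3 with IL-4 and a ratio of 32.4 (95% interval 10.6 to 161), and S100a8 at 15.2 and 10.4 CPM with LPS and 0.701 and 0.56 with IL-4, and the list summed to 0.00152 and 0.00121% of counts with LPS and 0.000342 and 0.000324% with IL-4. The defining marker Ly6g was at 0 counts in all 6 libraries. Of 6 dendritic markers 3 were tested: Zbtb46 was higher with IL-4, at 5.22 and 4.84 CPM against 0.244 and 0.349 with LPS (4.07 ± 0.24, adjusted p = 8.33e-05), as was Flt3, at 55 and 55 counts against 2 and 1 and a ratio of 25.3 (95% interval 8.43 to 125), and Xcr1 was higher with LPS (-4.23 ± 0.21, adjusted p = 5.15e-05). That list summed to 0.000806 and 0.000719% of counts with IL-4 and 0.000421 and 0.000396% with LPS. Of 8 stromal markers 7 were tested and 2, Acta2 (-0.44 ± 0.11, adjusted p = 0.0186) and Dcn (-0.43 ± 0.14, adjusted p = 0.0442), were slightly higher with LPS, and neither was called with upper quartile factors, without IL-4 replicate 1 or 2 or without LPS replicate 1, nor Dcn without LPS replicate 2 or with no filter. Both changed sign with library totals. The stromal list summed to 0.00973 and 0.0103% of counts with IL-4 and 0.00961 and 0.0087% with LPS. Of 5 mast cell and basophil markers Gata2 alone was tested (1.30 ± 0.22), and 0 of 6 lymphocyte and 0 of 4 erythroid markers had enough counts. The part of these markers in the results above was not tested.

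Within the macrophage list the markers did not move together. Fcgr1, the high-affinity Fc receptor, had 1917 and 1658 CPM with LPS, 122 and 127 with IL-4 and 309 and 276 untreated (-3.85 ± 0.13, adjusted p = 2.01e-05), and the lineage factor Spi1 was higher with LPS (-1.56 ± 0.16, adjusted p = 0.000522). Cebpa and Mertk were higher with IL-4. Csf1r (0.23 ± 0.14) and the lysosomal marker Cd68 (0.15 ± 0.13) were not called, though both were called higher with IL-4 with library totals alone. The median of the 10 markers was -0.03 and turned positive with upper quartile factors and library totals.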

How the data were processed

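Total RNA was measured with stranded TruSeq libraries, per the labels' protocols. The authors deposited raw counts per gene. Per the submitters' processing notes they used STAR and HTSeq on mm10, with versions and strand setting not given in the sources used here. Overlapping genes are therefore less certain: of 152 genes named by rule, 33 share bases with a same-strand gene and 52 with an opposite-strand gene (GENCODE vM21). The endotoxin-tolerant libraries of the series were not used here.

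The 6 stimulation libraries were fitted together in edgeR 4.0.16 (R 4.3.3, limma 3.58.1) with filterByExpr, TMM and the quasi-likelihood F test, and calls were made at 0.05 after Benjamini-Hochberg adjustment over all 12506 genes. Residual degrees of freedom were 3 and the biological coefficient of variation was 0.174. Intervals are at 95%, and those of log2 differences use the standard error taken back from F. The code was tested on simulated data. Replicates were not copies of each other (chi-square per degree of freedom 110 untreated, 38 with IL-4, 30.7 with LPS). A group at 0 was set to 3 counts in all for a lower bound, and where a group held 1 to 3 counts the ratio of counts is given. Intervals of ratios and floors cover counting error only.

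Named genes were the 15 largest differences each way (mean log2 CPM of at least 2, no overlap of groups), the 5 most abundant each way, up to 2 called members each way per list with the smallest p, and 28 fixed genes, some of which are not reported here. Other list members named in the text were picked after their values were seen. The comparison, the 27 pathway lists, the 7 marker lists and the tests were chosen with earlier results of these data known. Lists are described by counts and medians, with no test. Alternatives were RLE, upper quartile and library-total scaling, no filter, 1 CPM in 2 libraries, DESeq2 1.42.0, limma-voom, the IL-4 and LPS libraries alone, a replicate block and each library left out. Plots used matplotlib 3.10.9 under Python 3.11.15.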

Additional observations from a re-analysis of the deposited data

How the results depend on the processing

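The count of calls ran from 6260 to 8306 under the other scalings, filters and tools and from 4647 to 7373 when 1 library was left out, against 6645. With library totals alone 6608 genes were higher with IL-4, 1698 with LPS and 3626 over 1 log2 unit higher with IL-4. With 1 library left out, 2594 to 4087 genes were higher with IL-4 and 2029 to 3351 with LPS. Without IL-4 replicate 1 or 2 there were 4653 and 4647 calls, and without LPS replicate 1 or 2 there were 4797 and 5137; the lone library left in a group was assumed to vary like the other groups. Of named genes the sign turned for Stat6 (0.096 with upper quartile factors and 0.397 with library totals, called there with an edgeR adjusted p of 0.0159) and Nfkb1 (0.047 and 0.35), Slc7a2 (0.105 and 0.408) and Thbs1 (0.045 and 0.346) under the same 2 scalings. With library totals and no call it turned for Lyz2 (0.111), Cox7a2 (0.105), Acta2 (0.042), Dcn (0.048), Tfec (0.096) and Irf1 (0.219). C1qa gave -0.007 with RLE size factors and DESeq2 and ran from -0.02 to 0.178 when 1 library was left out. The cause of these changes was not tested.

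Same-number deviations correlated at -0.366 between IL-4 and LPS, -0.662 between untreated and IL-4 and 0.501 between untreated and LPS. With 2 libraries a group the deviations mirror each other, so the signs depend on the numbering. These values cannot tell whether libraries were paired or shared a batch, which was not tested. A replicate block gave 6117 calls, 3455 higher with IL-4 and 2662 with LPS, of which 6068 were shared with the fit without it. A crossed pairing, added after seeing the data, gave 8058 calls.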

Other observations

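Gene families outside the lists, chosen by symbol after their values were seen, showed further differences, given here with edgeR calls and no test of the family. Their counts stand beside 29.7% of all genes tested called higher with IL-4 and 23.4% higher with LPS. All 8 Schlafen genes tested, interferon-inducible regulators of cell growth and RNA, were higher with LPS, with a median difference of -3.36 log2 units that was -2.89 with library totals alone. Slfn4 had 421 and 355 CPM with LPS, 3.48 and 2.6 with IL-4 and 4.03 and 7.5 untreated (-7.00 ± 0.38). Of 6 Ms4a membrane proteins 5 were higher with LPS, led by Ms4a4c at 162 and 132 CPM against 5.87 and 6.03 with IL-4 (-4.63 ± 0.15), and Ms4a7 was not called (0.27 ± 0.09), though it was called higher with IL-4 under upper quartile factors, library totals, the filter of 1 CPM and limma-voom. Proteasome subunits were higher with LPS in 32 of 38 cases with a median of -0.61, a count that was 20 with upper quartile factors and 12 with library totals alone. The metallothioneins, which bind zinc and copper, were higher with LPS: Mt2 had 240.3 and 168 CPM with LPS, 5.5 and 4.89 with IL-4 and 5.06 and 4.03 untreated (-5.30 ± 0.25), and Mt1 differed by -2.61 ± 0.19.

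Some single genes also separated the states, again chosen after their values were seen. Lcn2, which withholds iron from bacteria, had 54.2 and 41.98 CPM with LPS and 0.182 and 0.224 with IL-4 (-7.86 ± 0.23), and Hp, the haemoglobin-binding haptoglobin, had 82.1 and 65.7 and 0.234 and 0.247 (-8.24 ± 0.23). Tfrc, the transferrin receptor that brings iron in, had 1031 and 559.7 CPM with IL-4, 90.5 and 133 with LPS and 71.1 and 209.7 untreated (2.83 ± 0.59), and was not called without LPS replicate 1. The mitochondrial superoxide dismutase Sod2 had 2362 and 2128 CPM with LPS and 52.3 and 54.5 with IL-4 (-5.39 ± 0.13). Socs2, a further member of the family of Socs1 and Socs3, had 76.2 and 67.05 CPM with IL-4, 1.15 and 1.08 with LPS and 1.85 and 1.5 untreated (6.00 ± 0.17). Among 19 subunits of the vacuolar proton pump, Atp6v0d2 (3.92 ± 0.29) and Atp6v0a1 (3.66 ± 0.09) were higher with IL-4, with Atp6v0a1 at 1223 and 1273 CPM against 98.5 and 99.3 with LPS, while the median of the subunits was -0.15 and turned positive with upper quartile factors and library totals. Of 21 integrin chains, Itgb3 included, 4 were higher with IL-4 and 8 with LPS, beside 29.7% and 23.4% of all genes tested. Those higher with LPS included Itgal (-2.76 ± 0.13) and Itga5 (-2.60 ± 0.17). The median of -0.12 turned positive with upper quartile factors (0.05) and library totals (0.35). Of 34 aminoacyl-tRNA synthetases 17 were higher with IL-4 and 2 with LPS, with a median of 0.41, a count that was 28 and 0 with library totals and 14 and 3 with RLE size factors.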
